A study of Homo sapiens and Mus musculus with 12 samples.

Results

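The genes described here encode the interleukin-6 (IL-6) family of cytokines and their receptors: the ligands *IL6*, *IL11*, *LIF* and *CLCF1*, the ligand-binding receptors *IL6R*, *IL11RA*, *LIFR* and *OSMR*, and the shared receptor *IL6ST*, which encodes gp130. They were chosen by name, with earlier results of these data known, as 9 human genes among the 63677 identifiers of the human count tables. Mouse genes of the same name were taken among 47729 identifiers. *Il11ra1* stood for *IL11RA*, and *Il6ra* is the mouse symbol of *IL6R*. RNA-seq was carried out in MDA-MB-231, a human triple-negative breast cancer (TNBC) line, and in 4T1, a mouse mammary carcinoma line, both labelled wild type. Cells of each line were kept for 24 h with DMSO or with 1 μM ponatinib, an inhibitor of several tyrosine kinases, with 3 libraries per group and 12 in all. Each line is a single cancer cell line grown alone, and the labels do not say whether the libraries of a group came from separate cultures, so the p-values below measure only the spread between libraries.

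IL-6, IL-11, LIF, CLCF1 and oncostatin M signal through gp130, paired with itself or with the *LIFR* or *OSMR* chain. Of these, IL-6, IL-11 and CLCF1 first bind a further receptor chain, which for CLCF1 is that of ciliary neurotrophic factor. The assembled receptor activates JAK kinases, which phosphorylate STAT3 and other STAT factors, while SOCS3 is induced and feeds back to shut the receptor down. In breast tumors the family is known for inflammatory and pro-metastatic signaling between tumor cells, stroma and myeloid cells.

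Library totals lay between 15012884 and 17301760 counts in MDA-MB-231 and between 17800675 and 18951493 in 4T1. Values are given as counts, or as CPM, read counts scaled to the library total corrected by TMM normalization. The epithelial keratins *KRT8*, *KRT18* and *KRT19* and the mesenchymal gene *VIM* had at least 1644 counts in every library of both lines. In MDA-MB-231 *KRT8* rose with ponatinib from 890 to 1638 CPM (adjusted p-value 2.9e-05, edgeR). *VIM* fell there from 1288 to 817 CPM (adjusted p-value 0.00024, edgeR), while *KRT18* and *KRT19* were not called. The epithelial gene *EPCAM* had 87 to 167 counts per MDA-MB-231 library, whereas *CDH1* had 1 count over the 6 libraries. Of the TNBC-defining receptors, *ESR1* had 0 to 2 and *PGR* 5 to 15 counts per MDA-MB-231 library. *ERBB2* was detected at 1426 to 1606 counts with DMSO and at 2619 to 3167 with ponatinib, a called rise (adjusted p-value 5.7e-06, edgeR). All 4 leukocyte markers had at most 2 counts in each MDA-MB-231 library, with *PTPRC* at 0, which summed to 0.0648 to 0.189 CPM with DMSO and 0 to 0.0548 CPM with ponatinib. Their summed level in 4T1, mostly *Cd68* with *Cd3e* and *Itgam* at 0, was 1.64 to 2.44 CPM with DMSO and 1.23 to 2.01 CPM with ponatinib. Of the 5 fibroblast and endothelial markers 4 had at most 9 counts per library in each line, with *PECAM1* at 0 in MDA-MB-231 and *Col1a2* and *Dcn* at 0 in 4T1. The exception, *COL1A1*, moved with treatment, so that their summed level was 25.9 to 31.7 CPM with DMSO and 72.8 to 77.1 CPM with ponatinib in MDA-MB-231, and 3.28 to 4.31 CPM and 8.16 to 8.73 CPM in 4T1. The part of these marker levels and changes in the results below was not tested. In bulk samples such as these, fewer cells expressing a gene and less RNA of it per cell cannot be told apart.

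In MDA-MB-231, ponatinib lowered all 4 ligands and split the receptors. Of the 9 family genes 7, namely the 4 ligands and 3 receptors, were lower and 2 receptors were higher at an adjusted p-value under 0.05 (edgeR quasi-likelihood test, Benjamini-Hochberg over all genes tested). Among all 14610 genes tested in this line 26.8% were lower and 27.2% were higher. The median log2 fold change of the 9 genes was -0.49, beside 0.02 over all tested genes. The ponatinib libraries did not overlap the DMSO libraries for any of the 9 genes, 7 lying below and 2 above, where 29.8% and 30.6% of all tested genes did so. In 4T1, 7 family genes had enough counts to be tested, of which 4 (3 ligands and *Il6ra*) were lower and 3 receptors were higher, beside 29.4% and 29.5% of 13286 genes. Scaling by total counts instead of TMM shifted this overall split in 4T1 from 3909 lower and 3925 higher genes to 2935 and 4854, and in MDA-MB-231 from 3918 and 3975 to 3097 and 4641. None of these 7 overlapped between groups, with 4 below and 3 above, beside 30.8% and 32.6% of the genes tested. The median of the 7 was -0.22, beside 0.00 over all tested genes.

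*IL11*, a cytokine known for its roles in fibrosis and bone metastasis, showed the largest change of the family in MDA-MB-231. Its 3 DMSO libraries held 74.4, 79.5 and 76.2 CPM and its ponatinib libraries 6.43, 5.22 and 4.33 CPM. Treated cells thus retained 79 to 102 counts per library against 1122 to 1228 in controls, a wide gap without overlap. The decrease was 14.4-fold, with a 95% interval of 11.9 to 17.6 and an adjusted p-value of 2.2e-09 (edgeR). Ranked from the largest fall, *IL11* stood 12 among the 14610 genes tested. In 4T1 *Il11* (chromosome 7, 4775372 to 4785858 of GRCm39, minus strand) was weakly expressed, with 19, 31 and 20 counts under DMSO and 6, 5 and 2 counts under ponatinib. All treated libraries were again below all controls, and the decrease was 5.6-fold (95% interval 2.87 to 10.9, adjusted p-value 0.00024 by edgeR).

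*IL11* lies on chromosome 19 at 55364382 to 55370463 of hg38, on the minus strand, and its RefSeq promoter window in GRCh38.p14 is shown because it belongs to the ligand with the deepest fall. The RefSeq table matched 7 of the 9 human family genes, with 10 windows among them, and did not match *LIF* and *CLCF1*. Each window runs from 250 bases before to 50 bases after a transcription start. Both strands were searched for the AP-1 motif TGANTCA, for the κB motif bound by NF-κB, for the STAT motif TTCNNNGAA and for the TATA box, and matches to different motifs did not overlap in the windows printed. The 250 upstream bases of *IL11* (chr19:55370464-55370713, minus strand) are printed with those of *IL6* (chr7:22726950-22727199, plus strand). *IL6* was the ligand with the smallest decrease in MDA-MB-231 and was chosen after its values were seen. Without windows for *LIF* and *CLCF1*, the ligands could not be compared as a set. The bases read as follows, with the motif matches in capitals.
IL11: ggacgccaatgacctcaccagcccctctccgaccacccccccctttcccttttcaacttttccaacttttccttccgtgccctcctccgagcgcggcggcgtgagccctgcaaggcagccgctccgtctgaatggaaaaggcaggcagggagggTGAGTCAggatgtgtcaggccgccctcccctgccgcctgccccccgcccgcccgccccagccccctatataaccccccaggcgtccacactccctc
IL6: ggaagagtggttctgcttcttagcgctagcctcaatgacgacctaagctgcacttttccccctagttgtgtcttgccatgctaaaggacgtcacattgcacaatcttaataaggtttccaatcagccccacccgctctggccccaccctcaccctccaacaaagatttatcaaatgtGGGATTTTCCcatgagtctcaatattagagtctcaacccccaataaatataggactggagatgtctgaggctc

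The *IL11* window held a single match, TGAGTCA, at positions -96 to -90 from the start. The *IL6* window held a single match to the NF-κB motif, at -73 to -64. Over all 35116 RefSeq windows of this length, 7.71% held the AP-1 letters, 1.91% the NF-κB letters, 7.66% the STAT letters and 11.5% the TATA box TATAAA. The AP-1 letters also stood in the windows of *IL6R* and *OSMR*, in both cases after the start. Among the 7 genes, the STAT letters and TATAAA stood in windows of *LIFR* only, with TATAAA between positions -202 and -195. Variants of TATAAA were not searched for, so the tatataa near the end of the printed *IL11* bases was not counted. No motif was found in the windows of *IL6ST* and *IL11RA*. Bases outside the windows were not searched, so a motif missing from a window may stand farther from the start. These matches describe letters and not bound sites, since binding was not measured.

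*LIF*, leukemia inhibitory factor (human chromosome 22, 30240453 to 30246759, minus strand, and mouse chromosome 11, 4207557 to 4222514, plus strand), fell in both lines. The human libraries held 127, 109 and 117 CPM with DMSO and 46.6, 49.9 and 44.4 CPM with ponatinib. The mouse libraries held 226, 211 and 200 CPM with DMSO and 91.6, 81.3 and 85.5 CPM with ponatinib. In neither line did the groups come near each other. The decrease was 2.51-fold in MDA-MB-231 (95% interval 2.197 to 2.86, adjusted p-value 3.1e-07) and 2.47-fold in 4T1 (95% interval 2.198 to 2.76, adjusted p-value 4.7e-09, both by edgeR).

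*CLCF1*, a ligand that signals through the ciliary neurotrophic factor receptor (human chromosome 11, 67364168 to 67374177, and mouse chromosome 19, 4264292 to 4273546), fell in MDA-MB-231 from 36.6, 28.5 and 31.0 CPM to 17.6, 15.3 and 14.3 CPM. This was a 2.04-fold decrease (95% interval 1.69 to 2.46, adjusted p-value 3.0e-05 by edgeR). The mouse gene had much higher CPM and a far smaller change, with 156, 139 and 148 CPM under DMSO and 132, 122 and 128 CPM under ponatinib. Although the mouse groups did not overlap, the 1.16-fold decrease (adjusted p-value 0.019, edgeR) lost its call in 3 of 12 alternatives. Its log2 fold change was -0.10 with total counts in place of TMM (adjusted p-value 0.229), -0.18 without ponatinib replicate 2 (0.105) and -0.22 without ponatinib replicate 3 (0.0502), all by edgeR.

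*IL6* itself, the founding cytokine of the family, lies on human chromosome 7 at 22725884 to 22732002 and on mouse chromosome 5 at 30218112 to 30224979. It fell in MDA-MB-231. Its libraries held 31.6, 35.5 and 28.9 CPM with DMSO and 19.6, 25.4 and 23.3 CPM with ponatinib. The groups were separated by a small gap only, and the decrease was 1.40-fold (95% interval 1.17 to 1.68, adjusted p-value 0.0044 by edgeR). In 4T1 *Il6* was barely detected and did not pass the filter on low counts, with 10, 8 and 18 counts under DMSO and 0, 0 and 1 counts under ponatinib. The 36 counts of the controls against 1 count of the treated libraries, scaled for depth, gave a ratio of 38.3 with an interval of 6.45 to 1554 that covers counting error only. When the filter was omitted, edgeR gave an adjusted p-value of 1.0e-05 for *Il6*, with a log2 fold change of -4.79 that depends on the prior count. *IL6* shares 9.9% of its exon bases with the antisense gene *IL6-AS1*, which had 32 counts over the DMSO libraries and 3 over the ponatinib libraries, and whether strand was used in counting is not given in the sources used here.

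**Figure D1:**
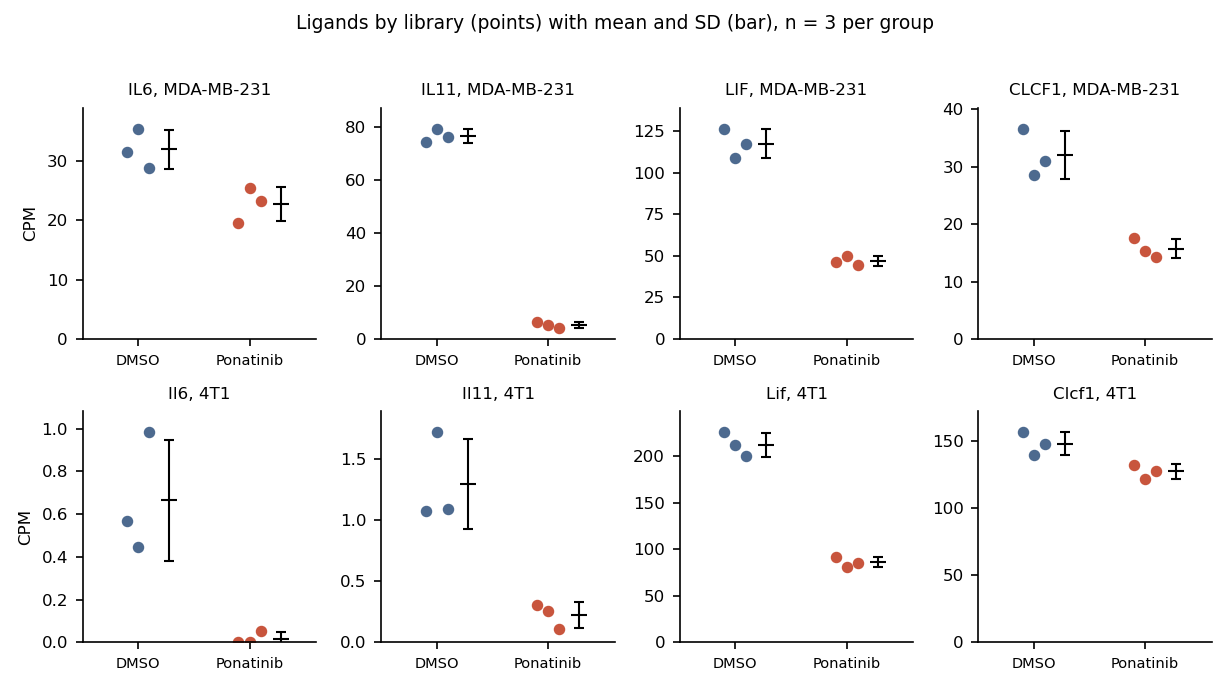
CPM (y axis, from 0) of the 4 ligands in each library of MDA-MB-231 (top) and 4T1 (bottom), with DMSO in blue and ponatinib in red, and the mean with its SD as a black bar beside the points (n = 3 per group). In each panel the 3 ponatinib libraries lie below the 3 DMSO libraries, with the widest gap for *IL11* in MDA-MB-231 and the narrowest, relative to the level, for *Clcf1* in 4T1. The SD bar of *Il6* under ponatinib is cut off at 0.

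Among the receptors, those for IL-11 and LIF moved against their ligands. *IL11RA*, the IL-11-binding chain (human chromosome 9, 34652162 to 34661902, and *Il11ra1* on mouse chromosome 4, 41699989 to 41769485), was raised in MDA-MB-231 from 5.57, 5.50 and 5.41 CPM to 15.9, 12.2 and 13.6 CPM. Treated libraries were thus well above the nearly identical controls, with a 2.53-fold increase (95% interval 2.04 to 3.15, adjusted p-value 1.2e-05 by edgeR). *Il11ra1* in 4T1 increased from 4.99, 4.45 and 5.58 CPM to 10.2, 10.1 and 10.2 CPM, a 2.03-fold increase (95% interval 1.65 to 2.51, adjusted p-value 2.3e-05 by edgeR). The mouse value is uncertain as to its source, because *Il11ra2* is a near-identical copy of *Il11ra1*. *Il11ra2* itself had 0 counts in 5 of the 6 4T1 libraries and 5 counts in ponatinib replicate 1. For the human gene, 32.5% of exon bases are shared with a read-through gene on the same strand (ENSG00000258728), which had 0 counts in all libraries.

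*LIFR*, which pairs with gp130 to bind LIF and other family ligands, was higher with ponatinib in both lines. It lies at 38474668 to 38608354 of human chromosome 5 and at 7120095 to 7226970 of mouse chromosome 15. In MDA-MB-231 it was measured at 6.96, 8.87 and 9.81 CPM under DMSO and at 10.6, 14.4 and 15.1 CPM under ponatinib. The lowest treated library was just above the highest control, and the increase was 1.56-fold (95% interval 1.21 to 2.02, adjusted p-value 0.0073 by edgeR). *Lifr* in 4T1 was measured at 3.23, 3.50 and 2.84 CPM and at 7.77, 7.65 and 6.78 CPM, respectively. Here the groups stood far apart, with a 2.32-fold increase (95% interval 1.81 to 2.96, adjusted p-value 2.1e-05 by edgeR).

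*OSMR*, the oncostatin M receptor chain, lies 237503 bases from *LIFR* on human chromosome 5 but moved the other way. It spans 38845858 to 38945596 and held 58.3, 65.2 and 65.9 CPM with DMSO and 46.9, 48.4 and 47.9 CPM with ponatinib in MDA-MB-231. The decrease was 1.32-fold (95% interval 1.17 to 1.5, adjusted p-value 0.0015 by edgeR). *Osmr* (chromosome 15, 6843053 to 6904450) was close to the detection limit in 4T1, with 4, 5 and 12 counts under DMSO and 5, 7 and 3 under ponatinib, which overlap and were too few to be tested. A difference was not detectable at this depth, since the ratio of DMSO to ponatinib was 1.49 with a counting interval of 0.732 to 3.11.

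*IL6R*, the IL-6-binding chain, fell in both lines. It lies on human chromosome 1 at 154405193 to 154469450, and *Il6ra* on mouse chromosome 3 at 89771366 to 89820719. Human libraries held 8.09, 11.2 and 10.8 CPM with DMSO and 6.31, 6.43 and 6.24 CPM with ponatinib, and mouse *Il6ra* libraries held 12.02, 9.17 and 8.97 CPM and 7.004, 6.30 and 6.02 CPM. The ponatinib values were tightly grouped and below every control in both lines. The decrease was 1.59-fold in MDA-MB-231 (95% interval 1.25 to 2.01, adjusted p-value 0.0036) and 1.56-fold in 4T1 (95% interval 1.24 to 1.95, adjusted p-value 0.0022, both by edgeR). The counts are per gene and do not separate transcripts for the membrane-bound and the soluble receptor.

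The gp130 gene *IL6ST*, used by every cytokine of the family named so far, was called in opposite directions in the 2 lines. It lies on human chromosome 5 at 55935095 to 55995022 and on mouse chromosome 13 at 112600604 to 112646620. In MDA-MB-231 it fell from 101, 118 and 116 CPM to 79.2, 84.9 and 91.5 CPM, a 1.31-fold decrease (95% interval 1.14 to 1.49, adjusted p-value 0.0032 by edgeR). In 4T1 *Il6st* rose from 132, 145 and 129 CPM to 219, 187 and 164 CPM, a 1.40-fold increase (95% interval 1.22 to 1.62, adjusted p-value 0.00051 by edgeR). The treated 4T1 libraries were widely spread (SD 27.5 CPM, n = 3), yet all lay above the controls (SD 8.38 CPM, n = 3).

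**Figure D2:**
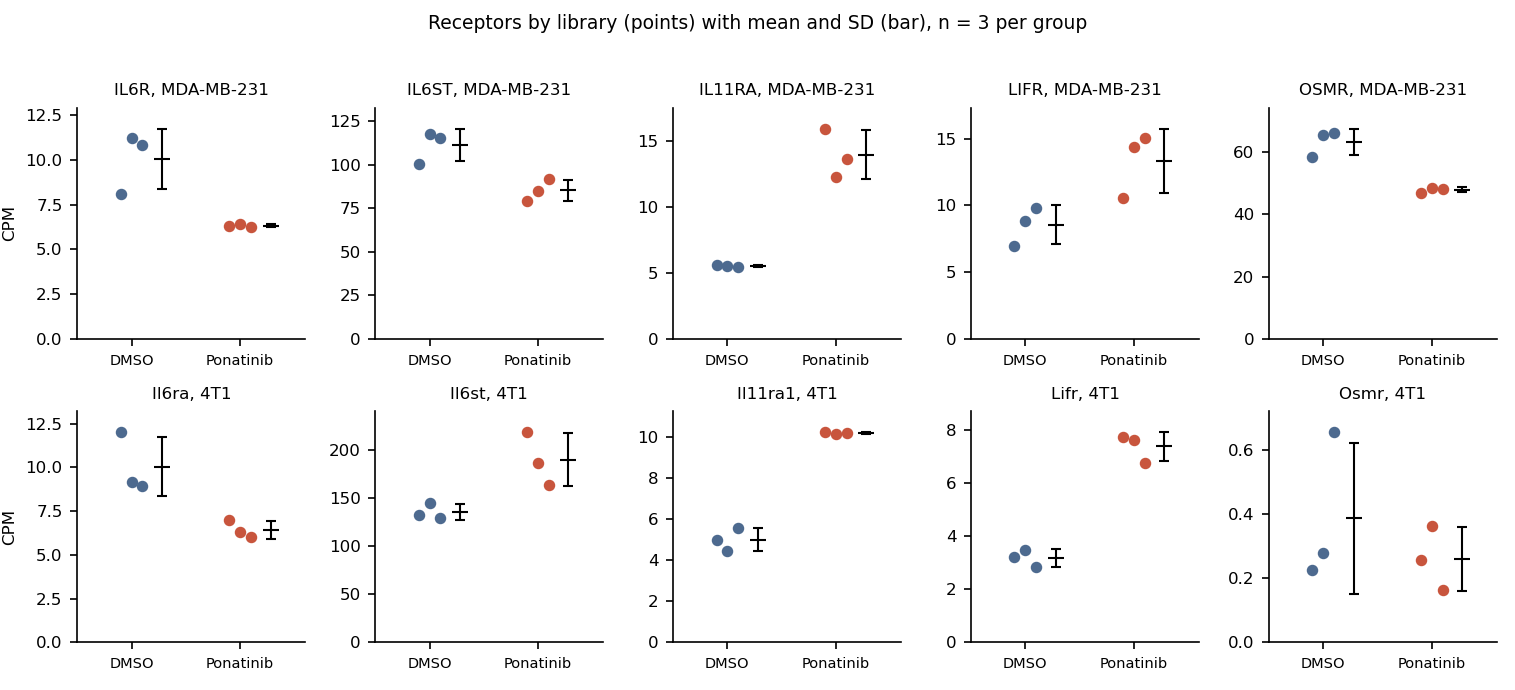
CPM (y axis, from 0) of the 5 receptor genes in each library of MDA-MB-231 (top) and 4T1 (bottom), drawn as for the ligands (n = 3 per group, black bars for mean and SD). *IL11RA* and *LIFR* rise with ponatinib in both lines, *IL6R* falls in both, *IL6ST* falls in MDA-MB-231 and rises in 4T1, and *Osmr* in 4T1 overlaps between groups.

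Within each line, levels were compared per kilobase of exon, without a test. The length counts the exon bases of all annotated transcripts of a gene, 4321 for *IL6*. Where the expressed transcript is shorter, the level per kb is underestimated, so the order of genes is approximate. In untreated MDA-MB-231 the ligands led, with *LIF* at 30.4 ± 2.28 CPM per kb (SD, n = 3) and *IL11* at 28.6 ± 0.968, whose ranges overlapped, followed by *CLCF1* at 17.4 ± 2.27. *IL6ST* (9.23 ± 0.775), *OSMR* (8.80 ± 0.587) and *IL6* (7.40 ± 0.769) came next, and neighbors among these 3 overlapped. The last places were held by *IL6R* at 1.44 ± 0.243, *IL11RA* at 1.05 ± 0.0154 and *LIFR* at 0.703 ± 0.119 CPM per kb. With ponatinib, *IL11* dropped from the second to the seventh place at 1.99 ± 0.395 CPM per kb and overlapped *IL11RA* at 2.65 ± 0.352, while *LIF* still led at 12.1 ± 0.719.

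In untreated 4T1 *Lif* (46.1 ± 2.80 CPM per kb, SD, n = 3) and *Clcf1* (38.8 ± 2.25) stood above *Il6st* (8.73 ± 0.539), each without overlap with the next. All others were at or below the 1.13 ± 0.193 CPM per kb of *Il6ra*. With ponatinib *Clcf1* took the first place at 33.4 ± 1.40 CPM per kb, *Lif* the second at 18.7 ± 1.123 and *Il6st* the third at 12.2 ± 1.77, again without overlap between neighbors. The exon lengths come from GENCODE v44 and vM39, which are not necessarily the annotations used for counting.

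**Figure D3:**
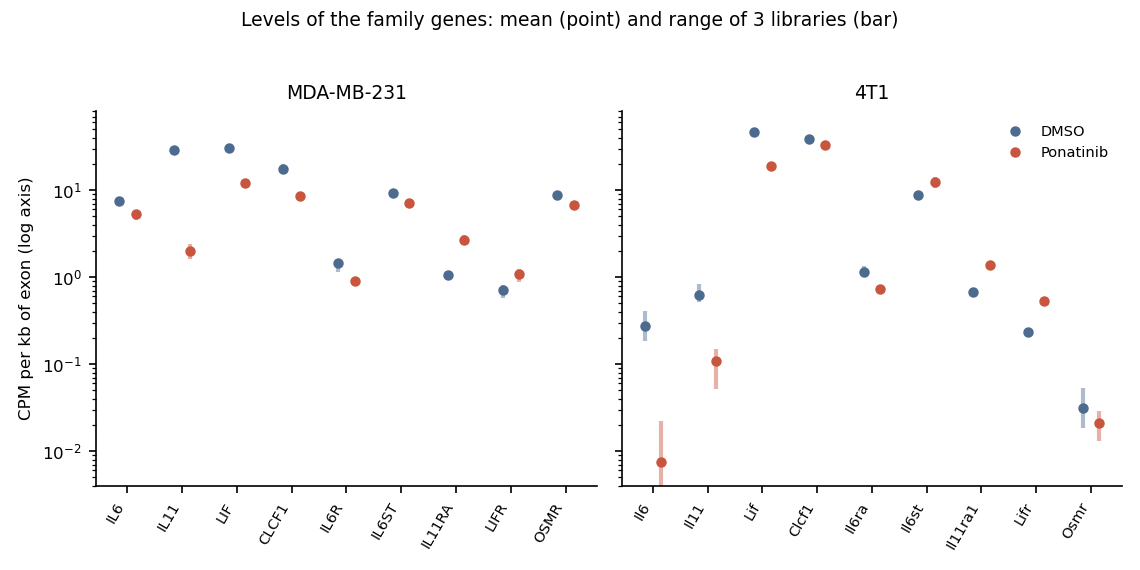
Levels of the 9 family genes in CPM per kb of exon (log y axis) in MDA-MB-231 (left panel) and in 4T1 (right panel), with the mean of 3 libraries as a point and their range as a bar, DMSO in blue and ponatinib in red. In MDA-MB-231 *IL11* moves from beside *LIF* to beside *IL11RA*, and in 4T1 *Osmr* lies lowest with DMSO and *Il6* with ponatinib. Bars shorter than the point are hidden by it, and the bar of *Il6* under ponatinib, which holds libraries at 0, is cut off at the lower edge.

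Whether the effect of ponatinib differed between the lines was asked with an interaction term over 9841 genes shared by name that passed the filter in each line, of which 51.4% differed. Of the family 7 genes could be tested, and 3 of them differed at an adjusted p-value under 0.05 (edgeR). *IL6ST* differed by 0.87 on the log2 scale (4T1 minus MDA-MB-231, SE 0.14, adjusted p-value 6.0e-05 by edgeR), with effects of opposite sign. *CLCF1* differed by 0.81 (SE 0.14, adjusted p-value 0.00012 by edgeR), the fall being smaller in 4T1. *IL11* differed by 1.37 (SE 0.51, adjusted p-value 0.038 by edgeR), also with the smaller fall in 4T1, but this call rests on few mouse counts and was lost in 6 of the 12 fits that leave out 1 library, at adjusted p-values of 0.0512 to 0.199. These were the fits without MDA-MB-231 ponatinib replicate 2 or 3, 4T1 DMSO replicate 1 or 3, and 4T1 ponatinib replicate 1 or 2.

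For the other 4 family genes no difference between the lines was called. That of *LIF* was 0.02, with a 95% interval from -0.22 to 0.27, and that of *IL6R* was 0.03, with a 95% interval from -0.44 to 0.50. *IL11RA* differed by -0.32, with an interval from -0.73 to 0.10. The larger rise of *LIFR* in 4T1 amounted to 0.57 (interval 0.06 to 1.08, adjusted p-value 0.059 by edgeR) and passed the threshold with the replicate block, that is with the replicate number as a term in the fit (0.57, adjusted p-value 0.015 by edgeR). It also passed without MDA-MB-231 DMSO replicate 1 (0.71, adjusted p-value 0.020) or without MDA-MB-231 ponatinib replicate 3 (0.67, adjusted p-value 0.040), both by edgeR. *Il6* and *Osmr* were too low in 4T1 for this test.

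**Figure D4:**
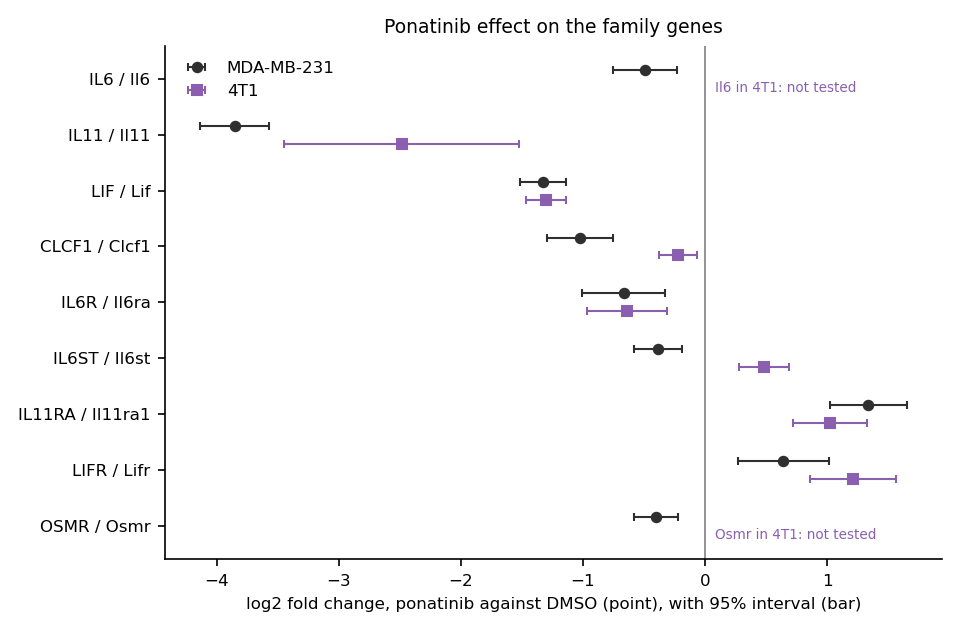
Log2 fold change of ponatinib against DMSO (x axis) with its 95% interval (bar) for each family gene, in MDA-MB-231 (black circles) and 4T1 (purple squares), n = 3 libraries per group. All ligands tested lie below 0, *IL11RA* and *LIFR* lie above 0 in both lines, and the intervals of *IL6ST* stand on opposite sides of 0.

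Few other genes of the family were expressed. Of 5 tested in MDA-MB-231 only 1 was called, where 26.8% of all genes tested were lower and 27.2% were higher. This was the cardiotrophin gene *CTF1*, a further ligand of the LIF receptor. It had 128, 117 and 110 counts under DMSO and 235, 181 and 226 under ponatinib, a 1.68-fold increase (adjusted p-value 0.00098 by edgeR) against the direction of the 4 ligands above. Mouse *Ctf1* had 12, 10 and 3 counts and 18, 16 and 15 counts, a log2 fold change of 0.87 that was not called (adjusted p-value 0.104 by edgeR). It shares 26.3% of its exon bases with *Ctf2* on the opposite strand, which had 0 counts throughout.

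*IL27RA*, the IL-27 receptor chain, was the best expressed of these genes in MDA-MB-231, at 58.5 ± 3.41 CPM under DMSO and at 58.7 ± 0.718 CPM after treatment (SD, n = 3), with an adjusted p-value of 0.964 (edgeR). *IL31RA*, which lies 12240 bases from *IL6ST* on chromosome 5, was at 9.10 ± 1.37 and 9.85 ± 0.719 CPM and was not called either (adjusted p-value 0.535 by edgeR). *EBI3*, a subunit of IL-27 and IL-35, had 51 to 54 counts under DMSO and 60 to 66 under ponatinib (adjusted p-value 0.444, edgeR), and *CNTF* had 6 to 17 counts per library (adjusted p-value 0.446, edgeR). *OSM*, the ligand of *OSMR* and the neighbor of *LIF* at 16069 bases on chromosome 22, had 1 count over the DMSO and 3 over the ponatinib libraries. *CNTFR*, the receptor of CLCF1, *IL27* and *IL31* had 0 counts in all libraries of both groups, where 0 allows for up to 3 counts. In 4T1 *Osm*, *Ebi3*, *Il31*, *Cntfr* and *Il31ra* had 0 counts in all 6 libraries as well, *Cntf* had 5 counts under DMSO and 3 under ponatinib, *Il27* had 2 and 2, and *Il27ra* had 0 and 7.

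The signaling list of 19 genes (JAK kinases, STAT factors, their inhibitors, adaptors and the sheddases ADAM10 and ADAM17) was tested whole. In MDA-MB-231, 4 were lower and 3 were higher, where 26.8% and 27.2% of all genes tested were, and the median log2 fold change was -0.05. With the replicate block these counts were 7 and 5. In 4T1, 5 of 19 were lower and 6 were higher, beside 29.4% and 29.5% of all genes tested, and the median was 0.15. Scaling by total counts gave 3 lower and 9 higher, and the lower count was also 3 without DMSO replicate 2, DMSO replicate 3, ponatinib replicate 1 or ponatinib replicate 3. *STAT3*, the main transcription factor downstream of gp130, stayed uncalled in both lines, at 159 and 152 CPM in MDA-MB-231 (log2 fold change -0.06, 95% interval -0.22 to 0.10) and at 90.3 and 89.9 CPM in 4T1 (-0.01, interval -0.19 to 0.18).

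*SOCS3*, the feedback inhibitor of gp130 and a STAT3 target, was lower in both. In MDA-MB-231 it fell from 55.7 ± 1.69 to 27.4 ± 0.556 CPM (SD, n = 3, log2 fold change -1.02, SE 0.08, adjusted p-value 1.4e-06 by edgeR), and in 4T1 from 83.8 ± 5.37 to 49.3 ± 4.32 CPM (SD, n = 3, log2 fold change -0.77, SE 0.09, adjusted p-value 3.6e-06 by edgeR). *STAT5A* was higher in both lines, with log2 fold changes of 0.71 for the human and 1.81 for the mouse line (adjusted p-values 2.4e-05 and 3.25e-08 by edgeR).

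Among the kinases *TYK2* was higher in both lines, by 0.41 and 0.74 on the log2 scale. *JAK1* was not called in either (0.07 and 0.16), and *Jak2* was higher in 4T1 (0.39, adjusted p-value 0.0024 by edgeR) but at a log2 fold change of -0.09 in MDA-MB-231 (adjusted p-value 0.812), a difference between the lines that was not called (0.48, adjusted p-value 0.131 by edgeR). *Jak1* in 4T1 passed the threshold with the replicate block (adjusted p-value 0.032, edgeR). In MDA-MB-231 the largest called changes of the list after *SOCS3* and *STAT5A* were those of *PIAS3*, an inhibitor of STAT3 (0.63), and of *GRB2*, an adaptor (-0.63).

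The target list holds 25 genes known to be induced by IL-6 family cytokines or STAT3. In MDA-MB-231, 5 of the 19 tested genes were lower and 6 were higher, beside 26.8% and 27.2% of all genes tested, and their log2 fold changes had a median of -0.05. In 4T1, 8 of 21 were lower and 6 were higher, beside 29.4% and 29.5%, with a median of -0.14. The largest called changes in MDA-MB-231 were those of *FOS*, a subunit of AP-1, which rose from 5.86 to 30.4 CPM (log2 fold change 2.38), and of *CCND1*, cyclin D1, which fell from 457 to 116 CPM (-1.98). *MUC1*, a membrane mucin, followed with 1.65 and *MCL1*, a survival factor, with -1.21, and all 4 had adjusted p-values of 6.23e-05 or less (edgeR).

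In 4T1 the largest called changes were those of *Lbp*, the acute-phase lipopolysaccharide-binding protein, which rose from 24.9 to 128.8 CPM (log2 fold change 2.37), *Muc1* (1.38), the adhesion molecule *Icam1* (1.18) and *Timp1*, a metalloproteinase inhibitor (-0.94), with adjusted p-values of 3.05e-06 or less by edgeR. *FOS*, *CCND1*, *MCL1*, *ICAM1* and *TIMP1* differed between the lines by the interaction test. In all, 12 of 19 target genes did so, beside 51.4% of the 9841 shared genes. For *MUC1* the difference was -0.27 (adjusted p-value 0.431, edgeR). Of the 19 targets tested in both lines, 2 were lower in both, 3 were higher in both and 2 were called in opposite directions. Of the 7 family genes tested in both, 4 were lower in both, 2 were higher in both and 1, *IL6ST*, was called in opposite directions. Among all 9841 shared genes 15% were lower in both, 12.3% were higher in both and 10.6% were called in opposite directions.

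**Figure D5:**
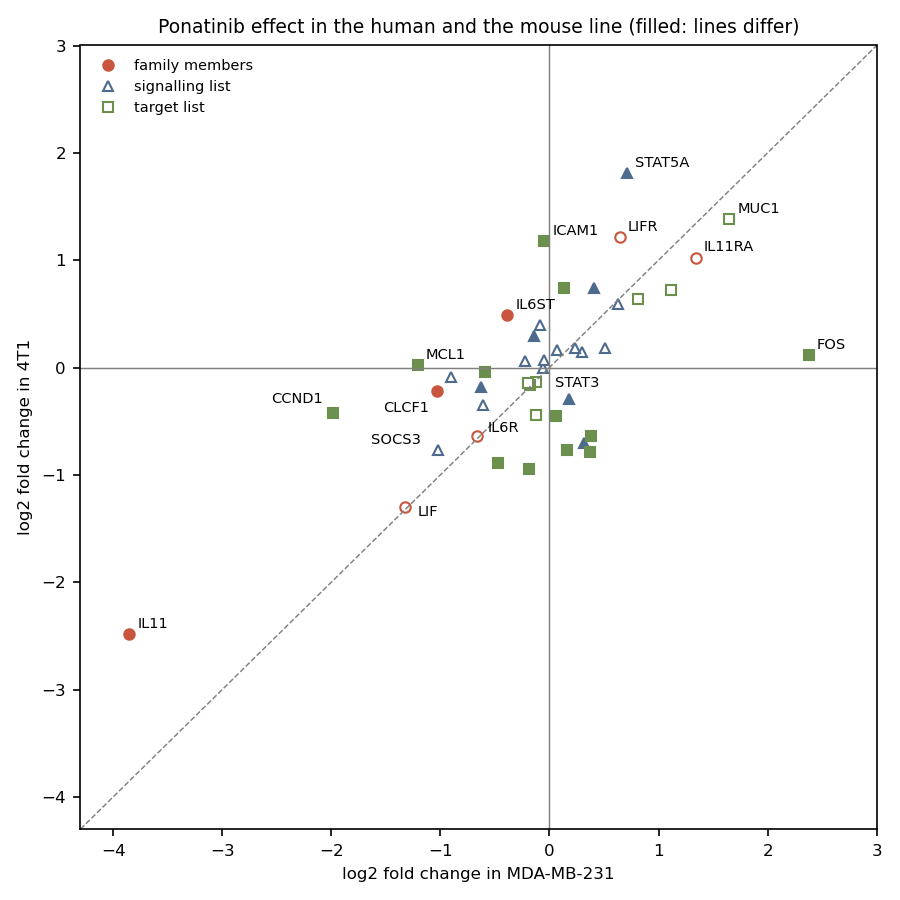
Log2 fold change of ponatinib against DMSO in MDA-MB-231 (x axis) and 4T1 (y axis) for the family genes (circles), the signaling list (triangles, 1 gene not shown) and the target list (squares) tested in both lines, some named by the human symbol, with the dashed line for equal effects. Filled symbols mark genes whose effect differed between the lines at an adjusted p-value under 0.05 (edgeR). *IL11* lies farthest to the lower left, *LIF* and *IL6R* lie close to the dashed line, and *IL6ST* lies in the upper left quadrant.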

How the data were processed

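RNA-seq counts of 12 libraries were used, grouped by their labels. According to the study's methods and the submitters' processing notes, the authors removed adapter and poly-N reads, used HISAT2 for alignment (hg38, GRCm39) and HTSeq for counting. They deposited whole-number counts for each gene, not normalized. Versions, annotation and strand setting are not given in the sources used here. Names, coordinates and exon lengths were taken from GENCODE v44, which matched 81.9% of the human identifiers and 99.3% of the human counts, and from vM39, which matched 91.1% and 99.8% for mouse.

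Each line was fitted over its whole table in edgeR 4.0.16 under R 4.3.3 (filterByExpr, TMM, quasi-likelihood test, Benjamini-Hochberg). The SE was derived from the F statistic, and intervals are 95%. The interaction used each line's own totals and TMM factors. Ratios of low counts have exact binomial intervals, and intervals and floors cover counting error only. The steps were tested on simulated data. No library was a copy of another (chi-square per gene 2.95 to 16.5 between replicates). Deviations from group means of same-numbered DMSO and ponatinib libraries correlated at 0.345, 0.111 and 0.133 in MDA-MB-231 and at 0.213, 0.119 and 0.115 in 4T1, all over 0.1. The reported fits have no term for the replicate number, and the fit with it is an alternative, given where it changed a call.

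The family members and the gene lists were chosen with earlier results of these data known, and the lists were written from general knowledge. Every family gene is named. Of the signaling and target lists, the text names the called genes with the 4 largest changes per line whose higher group averaged 1 CPM or more, and *STAT3*, *SOCS3* and the JAK kinases. Of the genes this rule and the family list give, 2 are not reported here. Alternatives were DESeq2 1.42.0, its size factors in edgeR, total counts, no filter, a minimum of 10 counts per library, the replicate block, the thresholds that the study's methods state (unadjusted p-value under 0.05 with a 1.5-fold change or more), and each library left out in turn.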

Additional observations from a re-analysis of the deposited data

Results flagged for a closer look

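The interaction test of edgeR found 3 family genes whose ponatinib effect differed between the lines, where 51.4% of the 9841 shared genes did so. For *IL6ST* the effect in 4T1 minus that in MDA-MB-231 was 0.87 on the log2 scale (95% interval 0.58 to 1.17), from -0.39 in the human line and 0.49 in the mouse line, with all 3 treated libraries below the controls in MDA-MB-231 and all 3 above them in 4T1. For *CLCF1* it was 0.81 (95% interval 0.52 to 1.102), from -1.03 and -0.22. For *IL11* it was 1.37 (95% interval 0.29 to 2.45), from -3.85 and -2.49, on 70 and 13 counts in all in the 4T1 groups. The lines differ in species, depth and starting level of each gene, and the part of these in the differences cannot be told apart.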

How the results depend on the processing

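Single family genes had 302 values under the alternatives other than the study's thresholds, and 290 of them kept their side of the threshold. No called direction reversed, although the uncalled differences of *LIF* and *IL6R* between the lines, near 0, changed sign in some. The 12 others are those of *Clcf1* in 4T1 and of the differences for *IL11* and *LIFR* given above. The study's thresholds (unadjusted p-value and fold change) were applied to the edgeR fits, whereas the study used DESeq2. By these thresholds 4 instead of 7 family genes were lower in MDA-MB-231. There *IL6* (1.40-fold), *IL6ST* (1.31-fold) and *OSMR* (1.32-fold) fell short of 1.5-fold. In 4T1, 3 instead of 4 family genes were lower and 2 instead of 3 were higher, with *Clcf1* (1.16-fold) and *Il6st* (1.40-fold) short of 1.5-fold. By this rule *IL6ST* was thus called in neither line. Target genes lower in MDA-MB-231 were 3 instead of 5. In 4T1, 2 instead of 5 signaling genes and 5 instead of 8 target genes were lower. Over all genes these thresholds left 2115 lower in MDA-MB-231 (3918 before) and 1735 lower and 2451 higher in 4T1 (3909 and 3925 before). The stricter fold condition is part of that rule. With the replicate block, 7 instead of 4 signaling genes were lower and 5 instead of 3 were higher in MDA-MB-231, and no called family gene lost its call. With total counts, which brought the median over all genes on the log2 scale to 0.11 (MDA-MB-231) and 0.12 (4T1), 2935 genes were lower and 4854 higher in 4T1, MDA-MB-231 had 3097 lower against 4641 higher genes, and 3 signaling genes were lower and 9 higher in 4T1 (5 and 6 before). Leaving out 1 library gave 3 to 5 lower signaling genes in 4T1, with 3 each without DMSO replicate 2, DMSO replicate 3, ponatinib replicate 1 or ponatinib replicate 3. The causes of these shifts were not tested. Depth limits *Il6*, *Il11* and *Osmr* in 4T1, and no fold change could be given for *Osmr* within a useful interval.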
